A study of Mus musculus with 6 samples.

Results

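Ribosome biogenesis and nucleolar factors are described here as 55 genes, found by their symbols among the 53023 rows of the expression table. No expression value entered the rule, but the list was drawn up with earlier results of these data known. They were grouped by role into 7 proteins of small nucleolar ribonucleoproteins (snoRNPs), 5 other nucleolar proteins, 22 factors of the small ribosomal subunit and 21 factors of the large ribosomal subunit. RNA-seq was performed on mouse two-cell embryos of the ICR strain, collected at 28 h post insemination (hpi), with 2 libraries in each of 3 groups and 5 pooled embryos in each library. Embryos of the non-injection group received no RNA. PIASy-WT embryos had received mRNA for wild-type PIASy, an E3 ligase for the small modifier SUMO. PIASy-Mut embryos had received mRNA for PIASy with the C335F change in its RING finger domain, labelled as a SUMO ligase mutant. The mRNA (100 ng/µl) entered the cytoplasm between 1.5 and 3 hpi, and only zygotes that showed fluorescence at 9 hpi were kept. The non-injection group therefore lacked both the injection and the selection step. The labels do not say whether libraries of a group came from separate days or matings, so the P-values measure only the spread between these libraries.

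Ribosomes are assembled in the nucleolus, where RNA polymerase I transcribes a long precursor of the ribosomal RNAs. C/D snoRNPs methylate this precursor and H/ACA snoRNPs convert some of its uridines to pseudouridine. The small-subunit processome, built around the U3 snoRNP, folds and cleaves the part that becomes the 40S subunit, and a separate series of factors matures the 60S subunit. Mouse embryos start with nucleolus precursor bodies that make little ribosomal RNA, and transcription of ribosomal RNA genes begins during the two-cell stage. The mRNAs of the factors described here are made by RNA polymerase II, and some of their genes are among those activated in the embryo at this stage.

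Expression was deposited as FPKM, the fragments on a gene relative to its length and to the depth of the library, so levels could be compared between genes. The libraries held 871663 to 1363928 fragments on genes. Both PIASy-WT libraries, of 1149421 and 1325411 fragments, had more genes above 0 (19909 and 20407) than the other 4 (17785 to 18603), and the part of this difference in the results was not tested. Pias4, which encodes PIASy, had an FPKM of 610 and 579 in PIASy-WT, beside 2.98 and 3.59 in non-injection and 862 and 611 in PIASy-Mut, so both injected groups carried the transcript at a high level. Markers of other cells were scarce, since the 10 cumulus cell genes held at most 0.00115% of a library's fragments. Between 6 and 9 of these were at 0 in each library, and Amh, Foxl2, Inhba and Pgr were at 0 in all. Only Tnfaip6 was found in every library, on 4 to 11 fragments. Its PIASy-WT values, an FPKM of 4.85 and 5.09, exceeded those of non-injection (1.72 and 2.07). They overlapped with the PIASy-Mut values of 2.83 and 5.37. Tnfaip6 was called in neither comparison of PIASy-WT (adjusted P=0.154 and 0.695 by limma, described below). The 5 sperm genes held at most 0.00044%. The 10 oocyte and early embryo genes, which identify the material, were detected in every library and held 0.791% to 0.834% in PIASy-WT and 0.670% to 0.751% in the other libraries. Both PIASy-WT libraries were thus the highest, but of the 10 genes only Bmp15 had its PIASy-WT libraries above all others, with 5204 and 5199 fragments beside 1036 to 2011. The PIASy-WT libraries lay below all others for 3 of the 10, Dppa3, Padi6 and Zp3, of which Zp3 was called lower in both comparisons of PIASy-WT by the test described below. The 9 genes of the two-cell stage held 0.0938% to 0.129% in PIASy-WT and 0.175% to 0.208% in the other libraries. Their summed share was thus lower in PIASy-WT. Gene by gene, 3 of the 9 had their PIASy-WT libraries below all others, Tdpoz4 was called lower in both comparisons and Tcstv3 against PIASy-Mut alone. The PIASy-WT libraries lay below all others for 24.4% of all genes tested, so 3 of 9 and 3 of 10 were not far from the background. Usp17ld had a mean FPKM in PIASy-WT of 157% of that in non-injection and 132% of that in PIASy-Mut. Whether embryonic stage had a part in the results was not tested. In pooled embryos, fewer cells that express a gene and less RNA per cell cannot be told apart.

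All 55 members were detected in every library and all passed the filter, which required 2 or more libraries with an FPKM of 1 or more. The median FPKM of a member was 21.7 and 24.1 in the non-injection libraries. Levels spanned a wide range, from 1.37 and 1.30 for Utp20, a large scaffold protein of the small-subunit processome, to 407 and 434 for Nhp2, a core protein of H/ACA snoRNPs. In PIASy-WT the median member had 7.21 and 4.76, and in PIASy-Mut 25.7 and 15.3. Of all fragments on genes, the members held 0.307% and 0.275% in PIASy-WT, beside 0.950% and 0.990% in non-injection and 1.32% and 0.759% in PIASy-Mut. Both PIASy-WT libraries thus lay below the other 4, and the PIASy-Mut libraries lay on either side of the non-injection libraries. Each of the 4 classes showed the same order. The large-subunit factors held 0.383% and 0.389% of the fragments in non-injection and 0.0940% and 0.0874% in PIASy-WT. The corresponding shares were 0.187% and 0.202% against 0.0683% and 0.0589% for the snoRNP proteins. They were 0.226% and 0.253% against 0.0818% and 0.0739% for the small-subunit factors.

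**Figure D1:**
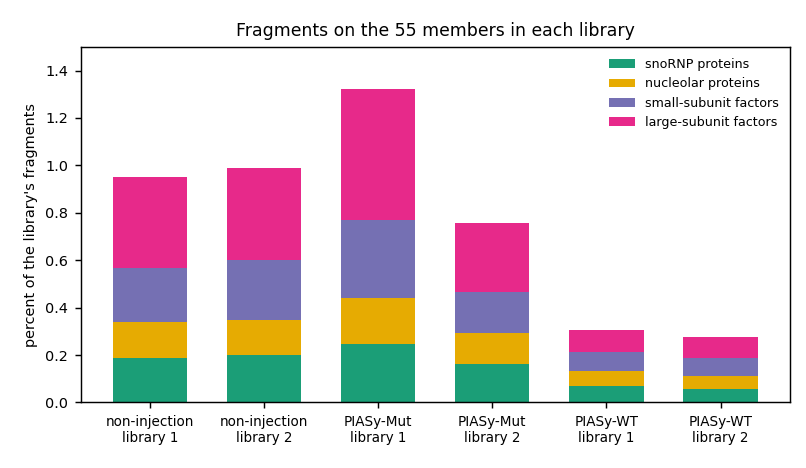
Percent of each library's fragments that lay on the 55 members, stacked by class, in the 6 libraries. The bars of PIASy-WT reach 0.307% and 0.275%, below the lowest of the other libraries at 0.759%, and PIASy-Mut library 1 is the highest at 1.32%.

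Gene by gene, both PIASy-WT libraries lay below all 4 other libraries for 53 of the 55 members. Over all 16100 genes tested, 24.4% showed this order. The exceptions were Utp20 and Bms1, a GTPase of the processome. In pairs of groups, the PIASy-WT libraries lay below both non-injection libraries for 54 members and below both PIASy-Mut libraries for 54, while 31.9% and 31% of all genes did so.

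**Figure D2:**
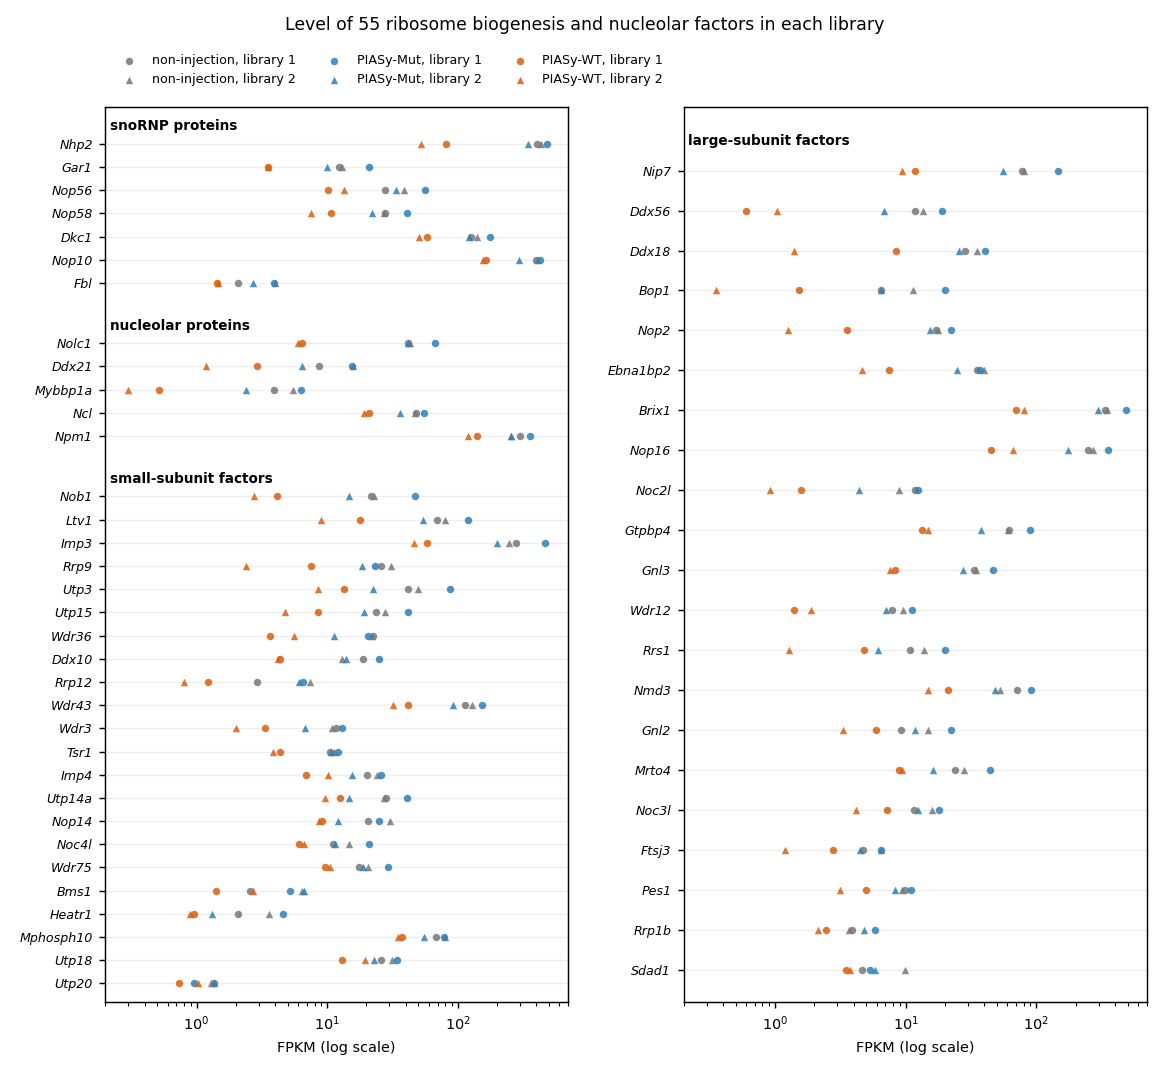
FPKM on a log scale of each member in each of the 6 libraries, with circles for library 1 and triangles for library 2, and genes ordered within each class by their mean fold change. The points of PIASy-WT lie to the left of the others for 53 of 55 members, and PIASy-Mut library 1 is the rightmost point for 43.

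Groups were compared by limma on log2(FPKM + 1), a scale that understates the fold change of weakly expressed genes. Genes with a Benjamini-Hochberg adjusted P of 0.05 or less, over all 16100 tested, are referred to as called. In PIASy-WT against non-injection, 18 members were called lower, none was called higher and 37 were not called. Of all genes tested, 5.76% were called lower and 1.03% were called higher. The log2 fold change was negative for all 55 members, with a median of -1.66 and a range from -2.93 to -0.31, while the median over all genes was 0.01. At a log2 fold change of -2 or less, 13 members were called, against a background of 3.81%. Without adjustment, 47 members had a P under 0.05, while 17.6% of all genes were lower at this threshold.

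In PIASy-WT against PIASy-Mut, which uses the same PIASy-WT libraries, 19 members were called lower and none higher. The background was 6.01% of genes called lower and 0.82% called higher. The median log2 fold change was -1.75, with a range from -2.97 to -0.19, and the median over all genes was -0.03. At a log2 fold change of -2 or less, 12 members were called, against a background of 4.06%. Without adjustment, 48 members had a P under 0.05, against 18.2% of all genes in this direction. Both comparisons called 15 members, whereas 3 were called against non-injection alone and 4 against PIASy-Mut alone. The remaining 33 members passed the threshold in neither. The difference between a gene's 2 fold changes equals its fold change in PIASy-Mut against non-injection, which was called for none of them.

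In PIASy-Mut against non-injection, limma called 0 of the 55 members and none had an unadjusted P under 0.05. voom, a version of limma for counts, also called 0 members. In this comparison 0% of all genes were called lower and 0.00621% were called higher, which is Pias4 itself. The log2 fold changes of the members ran from -0.52 to 0.44 with a median of 0.05, and 26 were below 0 and 29 above. The PIASy-Mut replicates differed from each other more than the group means did. PIASy-Mut library 1 exceeded library 2 for 52 of 55 members, by a median of 0.72 on the log2 scale. Over all genes tested it was higher for 48.0%, with a median difference of 0. PIASy-Mut library 1 was the highest of the 6 libraries for 43 members. Without PIASy-Mut library 1 the members' median against non-injection was -0.35, and without PIASy-Mut library 2 it was 0.40, with 0 members called either way and 6 and 8 at an unadjusted P under 0.05. Over all genes 9.94% and 8.85% reached that P.

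**Figure D3:**
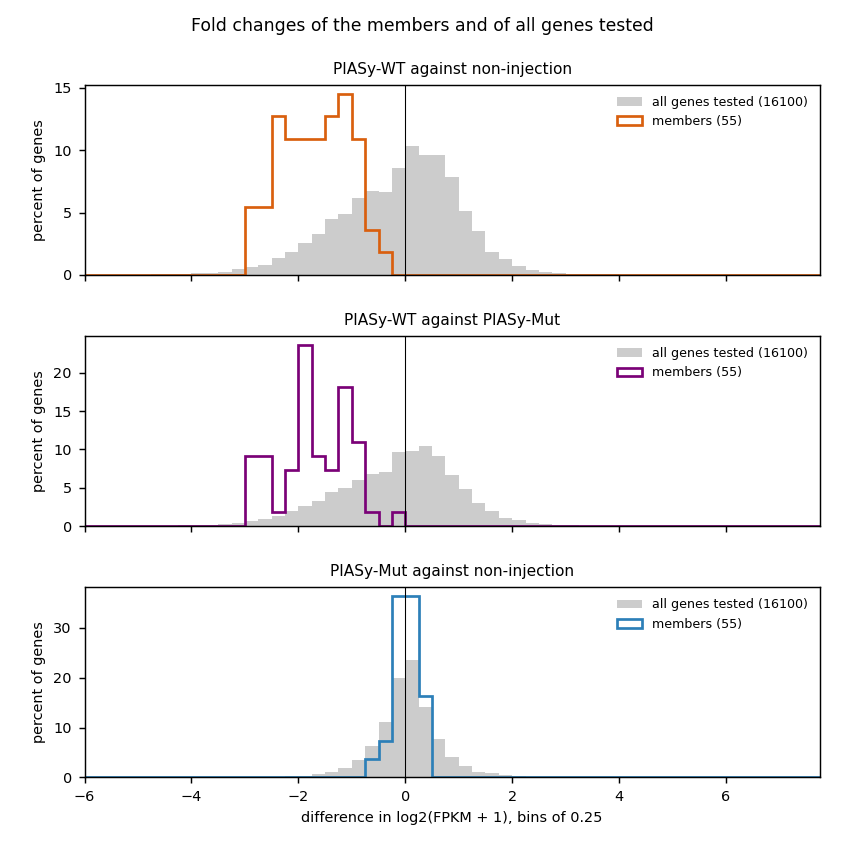
Percent of genes in bins of 0.25 of the difference in log2(FPKM + 1), for all 16100 genes tested (grey) and the 55 members (line), in the 3 comparisons. The members lie between -2.93 and -0.31 and between -2.97 and -0.19 in the comparisons of PIASy-WT, and between -0.52 and 0.44 around the middle of all genes in PIASy-Mut against non-injection.

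The calls rested on few libraries. When either non-injection library or either PIASy-WT library was left out, limma called 0 of the 55 members, and 0 of 16100 genes lower, in both comparisons of PIASy-WT. At an unadjusted P under 0.05 there were still 30 to 39 members against non-injection and 32 to 43 against PIASy-Mut. In these fits 10.9% to 12.7% and 11.8% to 16.0% of all genes were lower at that P. Without PIASy-Mut library 1 the counts were 35 against non-injection and 0 against PIASy-Mut, the latter with 38 members at an unadjusted P under 0.05 (13.3% of all genes lower). Without PIASy-Mut library 2 the counts were 37 and 37. The share of all genes called lower rose too, to 9.66% against non-injection without PIASy-Mut library 1 and to 10% and 10.95% without PIASy-Mut library 2. The sign of the estimates did not depend on a library, since all 55 log2 fold changes of PIASy-WT were below 0 in each of these fits.

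Promoter sequences were taken from RefSeq (GRCm38.p6) to show what the members share in sequence. A promoter, from 250 bases before to 50 after the gene's start, was listed for 48 of the 55 members. The letters CCGGAAG, the core bound by ETS factors, were found on either strand in 18 of these 48 promoters (37.5%). They were found in 17.2% of the promoters of genes tested and in 9.12% of all 27025 promoters. Among 83 further ribosome biogenesis factors, described below, the share was 47.0% of 66 promoters, above that of the members. The palindrome CACGTG, an E-box bound by MYC and USF factors, was found in 11 (22.9%), against 18.2% of the further factors, 9.91% of tested genes and 7.24% of all promoters. Shares for CCAAT were 43.8% in members and 40.9% in tested genes, and those for GCGCATGC, an NRF1 motif, were 4.17% and 5.36%. TATAAA was found in 6.25% of members, 8.91% of tested genes and 14.2% of all promoters. These are matches of letters and no binding was measured.

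The 5 promoters printed here all hold CCGGAAG, which the promoters of 30 of the 48 members lack, and come from all 4 classes and from both ends of the range of fold changes. They show the 150 bases before the start, 5′ to 3′ on the strand of the gene, with CACGTG and CCGGAAG (or its reverse complement) in capitals. The letters of these motifs cannot overlap each other. Gar1 lies at chr3:129831397-129831546 (minus strand), Nolc1 at chr19:46075697-46075846 (plus), Utp18 at chr11:93885767-93885916 (minus), Nop2 at chr6:125131733-125131882 (plus) and Nip7 at chr8:107056727-107056876 (plus).
Gar1: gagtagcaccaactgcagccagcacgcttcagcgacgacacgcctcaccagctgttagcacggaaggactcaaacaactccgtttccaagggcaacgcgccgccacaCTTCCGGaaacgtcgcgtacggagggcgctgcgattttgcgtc
Nolc1: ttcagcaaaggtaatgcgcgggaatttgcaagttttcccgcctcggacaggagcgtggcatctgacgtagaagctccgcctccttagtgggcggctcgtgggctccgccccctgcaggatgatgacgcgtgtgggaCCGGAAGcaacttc
Utp18: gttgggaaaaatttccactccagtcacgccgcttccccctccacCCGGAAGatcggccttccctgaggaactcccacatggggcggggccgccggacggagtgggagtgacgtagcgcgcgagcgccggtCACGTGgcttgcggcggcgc
Nop2: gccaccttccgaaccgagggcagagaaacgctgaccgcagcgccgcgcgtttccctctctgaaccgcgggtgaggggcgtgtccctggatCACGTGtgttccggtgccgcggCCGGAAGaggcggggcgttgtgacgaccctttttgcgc
Nip7: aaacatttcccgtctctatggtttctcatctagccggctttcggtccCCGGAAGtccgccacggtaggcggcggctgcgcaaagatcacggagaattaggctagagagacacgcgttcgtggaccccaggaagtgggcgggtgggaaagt
Nop2 and Utp18 hold both motifs in this stretch, with the E-box at position -60 and -20 from the start. They lie near opposite ends of the members' fold changes, at -2.52 for Nop2 and -0.80 for Utp18 in PIASy-WT against non-injection. The median log2 fold change in this comparison was -1.31 for the 11 members with an E-box and -1.77 for the 37 without. It was -1.87 for the 18 members with CCGGAAG and -1.47 for the 30 without. Against PIASy-Mut these medians were -1.29 and -1.91 for the E-box and -1.93 and -1.66 for CCGGAAG. The log2 fold change was negative for each of the 48 members with a listed promoter, whichever motif it held, but most were not called.

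Among the 7 snoRNP proteins, 3 were called lower against non-injection (median log2 fold change -1.42) and 3 against PIASy-Mut (median -1.65). For this and each class below, the background was 5.76% of all genes called lower against non-injection and 6.01% against PIASy-Mut. Those called against non-injection, Nhp2, Dkc1 and Nop10, belong to the H/ACA snoRNP, whose remaining core protein is Gar1. Nhp2 (ENSMUSG00000001056.3, plus strand of chromosome 11 of mm10 from 51619735 to 51623714) binds the guide RNA and had an FPKM of 81.0 and 52.4 in PIASy-WT, beside 407 and 434 in non-injection and 480.2 and 347 in PIASy-Mut. The PIASy-WT mean was 15.9% of that in non-injection and the groups were far apart. The log2 fold change was -2.67 (standard error 0.31, adjusted P=0.0224 by limma) against non-injection and -2.63 (adjusted P=0.0223) against PIASy-Mut.

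Dkc1, the pseudouridine synthase itself, had an FPKM of 58.0 and 50.2 in PIASy-WT, beside 126 and 139.9 in non-injection and 178 and 122 in PIASy-Mut. Both PIASy-WT libraries were lower than the rest, and its log2 fold changes were -1.28 (adjusted P=0.0479) and -1.43 (adjusted P=0.0385). Nop10, a small protein that contacts the synthase, had an FPKM of 165 and 157 in PIASy-WT, beside 396 and 404 in non-injection and 423 and 295 in PIASy-Mut. It was thus almost as abundant as Nhp2 in non-injection but kept 40.2% of its level in PIASy-WT. Its log2 fold changes were -1.31 (adjusted P=0.0427) and -1.13 (adjusted P=0.0567). Gar1, whose promoter is printed above, was the least abundant of the 4, with an FPKM of 3.52 and 3.55 in PIASy-WT, beside 12.4 and 12.9 in non-injection and 20.9 and 10.04 in PIASy-Mut. Its log2 fold changes of -1.59 (adjusted P=0.0665) and -1.78 (adjusted P=0.0536) did not pass the threshold, although the groups did not overlap.

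The C/D snoRNP is represented by Nop56, Nop58 and the methyltransferase fibrillarin (Fbl). Nop56, one of a pair of related scaffold proteins, had an FPKM of 10.1 and 13.4 in PIASy-WT, beside 27.7 and 38.8 in non-injection and 56.3 and 33.9 in PIASy-Mut. It fell against PIASy-Mut (log2 fold change -1.82, adjusted P=0.0409), and against non-injection its value was -1.42 (adjusted P=0.0666). Nop58, its partner, had log2 fold changes of -1.52 (adjusted P=0.0625) and -1.65 (adjusted P=0.0538). Fbl was low in all groups, with an FPKM of 1.43 and 1.45 in PIASy-WT, beside 2.09 and 3.99 in non-injection and 3.91 and 2.73 in PIASy-Mut. Its PIASy-WT libraries were the lowest, but its difference, on 7 and 8 fragments, did not pass the threshold (log2 fold changes -0.69 and -0.81, adjusted P=0.335 and 0.273). Part of its sequence also occurs in other genes, at 19.7% of its 50-base stretches, and the same holds for 18.6% of those of Nop56.

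Of the 5 other nucleolar proteins, only Nolc1 was called, in both comparisons, while the class medians were -2.01 and -1.82. Nolc1 (ENSMUSG00000015176.10), a chaperone that carries snoRNPs to the nucleolus, lies on the plus strand of chromosome 19 from 46075863 to 46085530. Its FPKM was 6.40 and 6.02 in PIASy-WT, beside 41.4 and 43.2 in non-injection and 67.2 and 41.7 in PIASy-Mut. It retained 14.7% of the non-injection level and 11.4% of the PIASy-Mut level. The log2 fold changes were -2.59 (adjusted P=0.0224) and -2.91 (adjusted P=0.0219). Its promoter holds CCGGAAG close to the start and no E-box.

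Ncl and Npm1 encode nucleolin and nucleophosmin, abundant proteins of the nucleolus that bind RNA and histones. Ncl (minus strand of chromosome 1, 86344719 to 86359400) had an FPKM of 20.7 and 19.0 in PIASy-WT, beside 48.3 and 46.8 in non-injection and 55.2 and 36.1 in PIASy-Mut. Npm1 (minus strand of chromosome 11, 33152287 to 33163206) had an FPKM of 140.1 and 119 in PIASy-WT, beside 300.1 and 255 in non-injection and 358 and 256 in PIASy-Mut. In each gene the PIASy-WT mean was 41.8% to 46.7% of that in either control group and the libraries did not overlap. Neither was called. The log2 fold changes of Ncl were -1.22 (adjusted P=0.059) and -1.13 (adjusted P=0.068). Those of Npm1 were -1.09 (adjusted P=0.0654) and -1.22 (adjusted P=0.0524). Npm1 has copies elsewhere in the genome, and 24.3% of its 50-base stretches occur in other genes. In all, 10 members had more than 10% of their stretches in other genes. They were Npm1, Fbl, Nop56, Ddx18, Noc2l, Tsr1, Wdr3, Utp14a, Pes1 (23.3%) and Mrto4 (12.3%).

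Ddx21, an RNA helicase of RNA polymerase I transcription and rRNA processing, had an FPKM of 2.91 and 1.18 in PIASy-WT, beside 8.64 and 15.7 in non-injection and 15.5 and 6.43 in PIASy-Mut. Mybbp1a, which binds the polymerase and MYB, had 0.520 and 0.300 in PIASy-WT, beside 3.92 and 5.49 in non-injection and 6.34 and 2.37 in PIASy-Mut. Both were lowest in PIASy-WT, yet the other libraries were spread widely. The log2 fold changes were -2.12 and -1.92 for Ddx21 (adjusted P=0.0724 and 0.0897) and -2.01 and -1.82 for Mybbp1a (adjusted P=0.0656 and 0.0793). Mybbp1a rested on 4 and 2 fragments in PIASy-WT. Counted over the pooled fragments, this was 9.03% of the non-injection level (95% exact interval 3.20% to 20.7%, counting error only).

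Among the 22 small-subunit factors, 5 were called lower against non-injection (median -1.46) and 5 against PIASy-Mut (median -1.41). Called in both were Imp3, Ltv1 and Wdr43. Rrp9 and Wdr36 were called against non-injection alone, and Nob1 and Ddx10 against PIASy-Mut alone. The members came from several parts of the processome. Of the 4 members that belong to the UTP-A complex, which binds the precursor first, Wdr43 was called (-1.70 and -1.68) and Heatr1, Utp15 and Wdr75 were not. Utp4 and Nol11, UTP-A proteins among the further factors described below, were called in both comparisons (-2.37 and -2.30 for Utp4, -1.93 and -2.00 for Nol11). Of the 3 members of the UTP-B complex, Wdr36 was called against non-injection (-2.07, adjusted P=0.0372), and Wdr3 and Utp18 were not. The UTP-B proteins among the further factors, Utp6, Tbl3 and Pwp2, were called in neither comparison (-1.96 and -1.93 for Utp6, -2.07 and -1.94 for Tbl3, -1.46 and -1.46 for Pwp2).

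The MPP10 complex joins Imp3, Imp4 and Mphosph10, which hold the U3 RNA to the precursor. Imp3 was the most abundant small-subunit factor, with an FPKM of 58.0 and 46.1 in PIASy-WT, beside 279 and 245 in non-injection and 469 and 199.9 in PIASy-Mut. It fell to 19.9% of the non-injection level, with log2 fold changes of -2.32 (adjusted P=0.0372) and -2.54 (adjusted P=0.0307). Its partners had smaller differences, which did not pass the threshold. For Imp4 the log2 fold changes were -1.31 and -1.17, and for Mphosph10 they were -1.01 and -0.84. No test compared the 3 partners with each other.

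Late steps of the 40S subunit are represented by Ltv1, Nob1, Rrp12 and Tsr1. Ltv1, which leaves the particle before its last maturation steps, had an FPKM of 17.9 and 9.01 in PIASy-WT, beside 69.3 and 80.5 in non-injection and 120.4 and 54.5 in PIASy-Mut. Its log2 fold changes were -2.46 (adjusted P=0.0409) and -2.58 (adjusted P=0.0369). Nob1, the nuclease that makes the final cut of the 18S rRNA, had 4.11 and 2.75 in PIASy-WT, beside 21.7 and 22.8 in non-injection and 46.7 and 14.8 in PIASy-Mut. It fell against PIASy-Mut (-2.65, adjusted P=0.045) and just missed the threshold against non-injection (-2.41, adjusted P=0.0537). Tsr1 was at -1.23 on the log2 scale in the latter comparison (adjusted P=0.06), and 32.3% of its exonic bases also lie in other genes, mainly Srr on the opposite strand. Reads of such overlapping genes cannot be told apart where counting ignored the strand, which the sources used here do not give. The same limit applies to Noc2l (20.9% of exonic bases in other genes, mainly Samd11), Wdr3 (16.2%, mainly Spag17) and Utp14a (11.5%, mainly a lincRNA gene), each with its main overlap on the opposite strand.

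By the mean of both PIASy-WT comparisons, the small-subunit factors nearest to 0 were Utp18 and Utp20. Utp18 had an FPKM of 13.0 and 19.3 in PIASy-WT, beside 25.7 and 31.5 in non-injection and 34.5 and 23.0 in PIASy-Mut. All 4 control libraries were above PIASy-WT, but the log2 fold changes of -0.80 and -0.79 were not called (adjusted P=0.183 and 0.193). Utp20 stood at 0.740 and 1.02 in PIASy-WT, beside 1.37 and 1.30 in non-injection and 0.950 and 1.35 in PIASy-Mut, so PIASy-WT and PIASy-Mut overlapped. It had 10 to 19 fragments per library, and its log2 fold changes of -0.31 and -0.19 did not pass the threshold (adjusted P=0.617 and 0.786).

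Among the remaining small-subunit factors, Ddx10, an RNA helicase, fell against PIASy-Mut (log2 fold change -1.91, adjusted P=0.0429), and its value against non-injection was -1.66 (adjusted P=0.0555). Rrp9, a protein bound to the U3 RNA, fell against non-injection (-2.45, adjusted P=0.0406) and had -2.02 (adjusted P=0.0584) against PIASy-Mut. Utp3, Utp14a, Nop14, Noc4l, Bms1, Heatr1 and Rrp12 passed the threshold in neither comparison, with log2 fold changes from -1.98 to -0.79 against non-injection. The PIASy-WT libraries of Bms1, at an FPKM of 1.40 and 2.69, overlapped with the non-injection libraries at 2.57 and 6.38.

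Of the 21 large-subunit factors, 9 were called lower against non-injection (median -1.97) and 10 against PIASy-Mut (median -1.94). Called in both were Nip7, Ddx56, Nop2, Ebna1bp2, Brix1, Nop16, Gtpbp4, Gnl3 and Wdr12, and Nmd3 was called against PIASy-Mut alone. Nip7, a small RNA-binding protein needed for 60S assembly, had an FPKM of 11.8 and 9.45 in PIASy-WT, beside 78.0 and 80.5 in non-injection and 145 and 55.3 in PIASy-Mut. Its log2 fold changes were -2.79 (standard error 0.46, adjusted P=0.0326) and -2.97 (adjusted P=0.0288). Brix1, a factor of early 60S particles, was the most abundant member of this class. It had an FPKM of 69.6 and 80.0 in PIASy-WT, beside 337 and 349 in non-injection and 486 and 296 in PIASy-Mut, from 251 or more fragments in every library. It fell to 21.8% of non-injection, with log2 fold changes of -2.19 (standard error 0.30, adjusted P=0.0268) and -2.33 (adjusted P=0.024).

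The RNA helicases Ddx56 and Ddx18 had some of the most negative values of all members. Ddx56 had an FPKM of 0.596 and 1.03 in PIASy-WT, beside 11.9 and 13.6 in non-injection and 19.1 and 6.79 in PIASy-Mut. It was called in both comparisons (log2 fold changes -2.93 and -2.80, adjusted P=0.0339 and 0.0356), although PIASy-WT had only 2 and 3 fragments. From pooled fragments its level was 6.30% of that in non-injection (95% exact interval 1.99% to 15.3%, counting error only). Ddx18 had 8.51 and 1.40 in PIASy-WT, beside 28.3 and 35.3 in non-injection and 40.2 and 25.4 in PIASy-Mut. Its PIASy-WT libraries differed strongly from each other, so fold changes of -2.77 and -2.79 were not called (adjusted P=0.0591 and 0.0588). In addition, 55.9% of the 50-base stretches of Ddx18 occur in other genes, which makes its level uncertain.

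The PeBoW complex, which is required for processing of the large-subunit rRNAs, consists of Pes1, Bop1 and Wdr12. Wdr12 was called (-1.88 and -1.92, adjusted P=0.0419 and 0.0392), and Bop1 (-2.39 and -2.76) and Pes1 (-1.09 and -1.08) were not. Bop1 rested on 5 and 1 fragments in PIASy-WT, and from pooled fragments its level was 11.2% of that in non-injection (95% exact interval 3.94% to 26.0%, counting error only). Among the GTPases that act on pre-60S particles, Gtpbp4 (-2.05 and -1.97) and Gnl3 or nucleostemin (-1.97 and -2.05) were called and Gnl2 (-1.22 and -1.65) was not. Nop2, an rRNA methyltransferase whose promoter holds both motifs, had log2 fold changes of -2.52 (adjusted P=0.0328) and -2.61 (adjusted P=0.0295). These values rested on 13 and 4 fragments in PIASy-WT. The other methyltransferase, Ftsj3, had -1.18 and -1.15 and was not called. Nmd3, the adaptor that exports the 60S subunit from the nucleus, had -1.73 (adjusted P=0.0539) and -1.84 (adjusted P=0.0482). Ebna1bp2 (-2.49 and -2.18) and Nop16 (-2.21 and -2.15), assembly factors of early 60S particles, were called in both comparisons. Noc2l, Noc3l, Mrto4 and Rrs1 were called in neither, with values from -2.34 to -1.17 against non-injection. Of these, Noc2l and Rrs1 had 3 fragments in their lowest PIASy-WT library.

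Rrp1b, a nucleolar partner of a protein phosphatase, and Sdad1 lay nearest to 0 among the large-subunit factors. Rrp1b had an FPKM of 2.45 and 2.15 in PIASy-WT, beside 3.90 and 3.67 in non-injection and 5.79 and 4.77 in PIASy-Mut. Sdad1, a factor related to a yeast pre-60S protein, had 3.46 and 3.73 in PIASy-WT, beside 4.60 and 9.88 in non-injection and 5.34 and 5.79 in PIASy-Mut. In both genes the PIASy-WT libraries were the lowest. For Rrp1b they lay further from the nearest control library than libraries of any group lay from each other, and for Sdad1 the non-injection libraries were far apart. Neither gene was called. The log2 fold changes were -0.54 and -0.93 for Rrp1b and -0.76 and -0.51 for Sdad1, with adjusted P-values from 0.147 to 0.469.

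**Figure D4:**
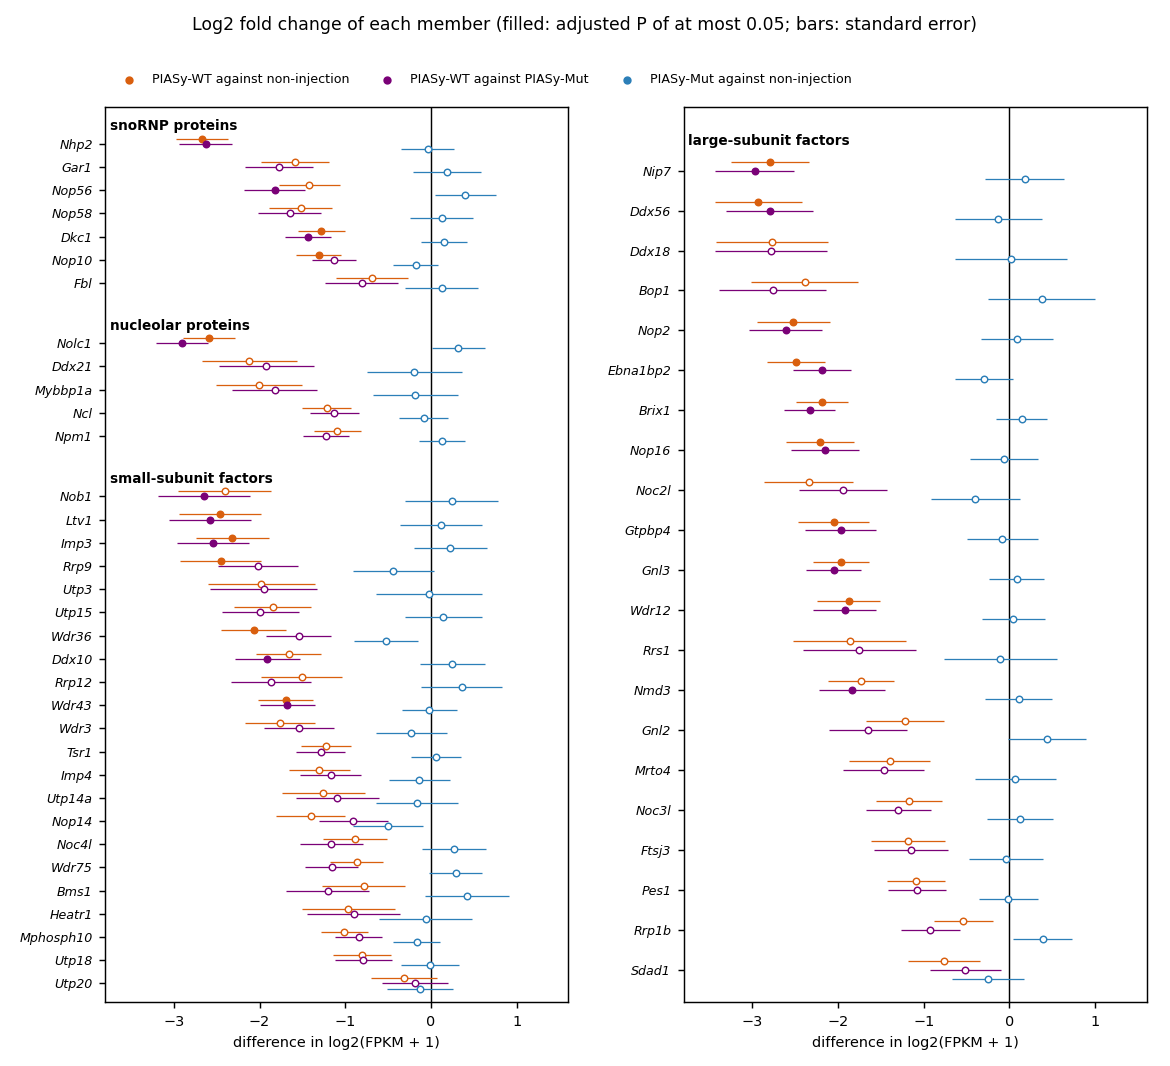
Difference in log2(FPKM + 1) of each member in 3 comparisons, with standard errors from limma as bars and filled points for an adjusted P of at most 0.05. Both PIASy-WT comparisons lie below 0 for all 55 members, with 18 and 19 filled points, and PIASy-Mut against non-injection has none.

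Many snoRNAs are made from the introns of genes for nucleolar and ribosomal proteins. By the gene positions in the expression table, snoRNA or scaRNA genes overlapped the span of 7 members. Neither the same strand nor a position in an intron was required. There were 5 such genes in Nop56, 4 in Nop58, 3 each in Ncl, Gnl3 and Wdr43, 2 in Tsr1 and 1 in Dkc1. These 7 members had log2 fold changes from -1.97 to -1.22 in PIASy-WT against non-injection, and Dkc1, Gnl3 and Wdr43 among them were called. The snoRNAs themselves were not analysed here.

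The wider pathway was described with 83 further ribosome biogenesis factors of the table, of which 80 passed the filter. Against non-injection 26 of the 80 were called lower and none higher, and against PIASy-Mut 29 were called lower and none higher. Over all genes tested, 5.76% and 6.01% were called lower in these comparisons. The medians of -1.67 and -1.73 were close to those of the members. Both PIASy-WT libraries lay below the other 4 for 66 of the genes, an order that 24.4% of all genes tested showed. The 76 cytosolic ribosomal protein genes, whose products these factors assemble, gave 31 and 34 lower and none higher, with medians of -1.78 and -1.82.

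Rpf2, which helps to bring the 5S particle into the large subunit, had the most negative value of these further factors. Its FPKM was 7.45 and 4.97 in PIASy-WT, beside 88.0 and 118 in non-injection and 188 and 90.0 in PIASy-Mut, with log2 fold changes of -3.86 (adjusted P=0.0224) and -4.21 (adjusted P=0.0219). Fcf1, a nuclease-like protein of the small-subunit processome, had an FPKM of 26.3 and 25.7 in PIASy-WT, beside 185 and 237 in non-injection and 276 and 165 in PIASy-Mut. It fell by 2.96 and 2.99 on the log2 scale (adjusted P=0.0224 and 0.0219). Nifk, a nucleolar partner of the Ki-67 protein, had an FPKM of 44.5 and 20.8 in PIASy-WT, beside 237 and 276 in non-injection and 346 and 161 in PIASy-Mut. It fell by 3.03 and 2.91 on the log2 scale (adjusted P=0.0318 and 0.0315). In all 3 genes the PIASy-WT libraries lay below the other 4.

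Not every further factor followed this order, and in each comparison 6 of the 80 had a log2 fold change above 0, none of them called. Naf1, an assembly factor of H/ACA snoRNPs, and Npm3, a relative of nucleophosmin, were the 2 genes with both PIASy-WT libraries above the other 4, and both were chosen for mention after their values were seen. Naf1 had 12 and 9 fragments in PIASy-WT and 1 to 3 in the others, with log2 fold changes of 1.06 and 1.19 (adjusted P=0.151 and 0.121). Npm3 had 4 and 5 fragments in PIASy-WT and 0 to 3 in the others, with log2 fold changes of 0.60 and 1.25 (adjusted P=0.55 and 0.244). Among better covered genes, Trmt112, a cofactor of several methyltransferases, had an FPKM of 38.6 and 48.0 in PIASy-WT, beside 38.7 and 41.6 in non-injection and 36.1 and 35.4 in PIASy-Mut. The PIASy-WT libraries lay above PIASy-Mut and overlapped with non-injection. Its log2 fold changes were 0.10 and 0.26 (adjusted P=0.821 and 0.522). Ruvbl2, an ATPase of the snoRNP assembly machinery and of chromatin remodelling complexes, had an FPKM of 6.24 and 7.20 in PIASy-WT, beside 4.29 and 3.96 in non-injection and 5.34 and 7.91 in PIASy-Mut. Its PIASy-WT libraries lay above both non-injection libraries and between those of PIASy-Mut, with log2 fold changes of 0.59 and 0.04 (adjusted P=0.31 and 0.962). Neither gene was called.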

How the data were processed

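RNA-seq was performed on 6 libraries of two-cell embryos, mapped to 3 groups by their labels. Per the paper, the authors removed low-quality reads and bases (below Q20) and adapters (Trim Galore), used STAR for alignment to mm10 and featureCounts for counting reads with a unique position. They deposited FPKM values for 53023 genes. The annotation release and strand setting are not given in the sources used here. The authors added spike-in RNA, but the table holds 0 spike-in rows, so values are shares of a library and RNA per embryo was not compared. The authors' own differential test used DESeq2 on counts.

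FPKM was multiplied by gene length and scaled to whole fragments, which held for 100% of values above 0 (tolerance 0.01). This gave 871663 to 1363928 fragments per library. limma 3.58.1 in R 4.3.3 (lmFit, eBayes with trend) was run on log2(FPKM + 1) of all 6 libraries, with no block. The 16100 genes that reached an FPKM of 1 in 2 or more libraries were tested. It had 3 residual degrees of freedom. P-values are two-sided. The alternatives changed the pseudocount, the filter, the scaling, the eBayes options or the libraries in the fit, added a replicate block, or applied voom to recovered fragments. Summaries were made in Python 3.11.15 with pandas 2.3.3, and exact intervals with scipy 1.17.1. Exon overlap and snoRNA genes were taken from the gene positions in the deposited table. Sharing of 50-base stretches used GENCODE M21 transcripts, and promoters came from the RefSeq table.

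The members, the lists and the motifs were chosen with earlier results of these data known. Values in full were given for Ncl, Npm1, Fbl and Dkc1, in each class for the 3 most negative and 2 most positive members by the mean of both PIASy-WT fold changes and for the most abundant member, and for the 3 most negative and 2 most positive further factors with a mean of at least 10 fragments. Partners named beside them to complete a complex and members that overlap snoRNA or scaRNA genes were chosen after their values were seen. So were genes named because a count was 5 or fewer. Repeat elements, RT-qPCR and imaging were not analysed here.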

Additional observations from a re-analysis of the deposited data

How the results depend on the processing

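All 55 members had a negative log2 fold change in both comparisons of PIASy-WT in every setting that kept them, while the number called varied. Against non-injection, where 18 were called, the count was 3 without a filter and 3 without a trend, 35 of 51 with an FPKM of at least 5, 35 with the groups compared only and 37 with voom. The share of all genes called lower moved with it, from 5.76% to 0.553%, 1.59%, 17.4%, 9.71% and 11.8% in the same order. Against PIASy-Mut, where 19 were called, it was 3 without a filter, 7 without a trend, 9 with quantile normalization, 10 with median-of-ratios scaling, 34 of 51 with an FPKM of at least 5 and 41 with voom. Over all genes the share went from 6.01% to 0.873%, 2.88%, 3.04%, 3.91%, 17.9% and 11.6%. With the groups compared only it was 0, with 43 members, and 15.9% of all genes lower, at an unadjusted P under 0.05 by limma. Without a filter more genes (27826) were adjusted for, and with an FPKM of at least 5 fewer (8282). The cause of the differences between settings was not tested. Leaving out 1 library at a time gave 0 to 37 calls in each comparison, and median log2 fold changes of the members between -1.74 and -1.50 against non-injection. Against PIASy-Mut the median lay between -2.17 and -1.26. A fit that leaves 1 library in a group assumes that it varies like the others. Quantile normalization moved the median over all genes from 0.01 to 0.12 and from -0.03 to 0.11, and the members' medians were then -1.45 and -1.47.

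With the replicate number as a replicate block, limma called 14 members against non-injection, and the count was 16 against PIASy-Mut, while 4.47% and 4.96% of all genes were called lower. The numbers gave no evidence of pairing, since the replicate differences of 2 groups correlated across 16100 genes with r from 0.00368 to 0.0851. In PIASy-Mut against non-injection, 0 members were called by limma or voom in each setting run, with up to 8 at an unadjusted P under 0.05. Counting error was largest for the members with few fragments, 13 of which had a mean of under 30 per library, and its part in the calls was not tested.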
